A study of Mus musculus with 24 samples.

Results

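GSK-126 is an inhibitor of the enzyme that writes a repressive histone mark and GSK-J4 of the enzymes that erase it, and the coverage of that mark, histone H3 lysine 27 trimethylation (H3K27me3), at gene promoters was compared between the treatments in cultured mouse cerebellar granule neurons (CGNs). The quantity described here is the GSK-126 response minus the GSK-J4 response, taken promoter by promoter over 12 of the 24 CUT&RUN libraries of the series. CUT&RUN cuts out and sequences the chromatin that an antibody has bound, here an antibody to H3K27me3. The 12 libraries formed 4 groups of 3 biological replicates: CGNs given 5 µM GSK-126, CGNs given DMSO as its vehicle, CGNs given 1 µM GSK-J4, and a separate set of CGNs given DMSO as the vehicle of GSK-J4. Compound or vehicle went into the medium on day in vitro 1 (DIV1), with harvest on DIV5. Each of these DIV5 groups, the untreated cells included, was cultured from granule neuron progenitors of early postnatal CD1-IGS mouse cerebellum, with the tissue of litters pooled, and received cytosine arabinoside against dividing non-neuronal cells. Each culture is therefore an enriched granule neuron preparation of pooled animals, not a sample of 1 animal. The doses of the compounds differed, so the difference between the responses is that between these treatments as given, not at a matched dose. Nothing in the peak lists measures whether KDM6 activity was reduced at this dose of GSK-J4. The 3 untreated DIV5 libraries of the time course, which had neither compound nor DMSO, are shown beside the 12.

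EZH2 is the catalytic subunit of Polycomb repressive complex 2, which adds methyl groups to lysine 27 of histone H3. The trimethylated form marks promoters that are kept silent, often those of developmental regulators and of genes that belong to other cell types, and spreads over CpG-rich sequence around the start of the gene. KDM6A and KDM6B are the demethylases that take the mark off. GSK-126 competes with the methyl donor at EZH2, whereas GSK-J4 is a cell-permeable inhibitor of the KDM6 enzymes. Granule neurons leave the cell cycle as they differentiate and mature over the days in culture that these libraries sample.

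The measured value was coverage, the percentage of a promoter window occupied by a library's peaks. A window was the 6 kb around the annotated 5′ end of a protein-coding gene, 3 kb on each side, and there were 21938 of them. Because the libraries differed in how much of the genome was called, 2 peak sets were compared. The all-peaks set used every deposited peak. The equal-length set kept the strongest peaks of each library, by the authors' −log10 p, until they summed to 1.07 Mb, the length of the shortest list. For each promoter the response difference is (GSK-126 minus its DMSO) minus (GSK-J4 minus its DMSO) in percentage points of the window, called points below. A negative difference means that coverage was lower with GSK-126, relative to its DMSO, than with GSK-J4, relative to its own. Promoters covered in at least 3 of the 12 libraries were tested with limma across all such promoters, and a promoter was called at an adjusted p under 0.05.

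Read depth is not known for any library, so only the peak lists show how the libraries compare. Peaks covered 1.07 to 2.00 Mb in the GSK-126 libraries, against 3.29 to 4.23 Mb in their DMSO libraries, and 1.40 to 3.11 Mb in the GSK-J4 libraries, against 1.70 to 2.08 Mb in theirs. The 2 DMSO sets therefore did not overlap in the length called. The response difference in covered length was −2.28 Mb (−2.13 Mb for GSK-126 and 0.152 Mb for GSK-J4), with an exact two-sided permutation p of 0.05 over 400 arrangements and 0.1 after Benjamini-Hochberg adjustment over the 2 whole-library measures. For the number of promoters with a peak the response difference was −784 promoters (exact permutation p = 0.265). The smallest p this permutation allows is 0.005. A pair of libraries stood apart: in GSK-126 replicate 3, 47.2% of the promoters it marked were marked by none of the other 23 libraries, and GSK-J4 replicate 3 had the longest list of its group. Of 17 genes that define granule neurons, 4 had a promoter peak in any of the 12 libraries, beside 6744 of all 21938 promoters (30.7%).

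Marked sequences from promoters with a called response difference are shown first. For each, the longest stretch that all 3 libraries of a group covered was cut to its longest piece without bases of an untranslated region. The 160 bases in the middle of that piece are printed from the mm10 genome on the strand of the gene. They are in lower case with each CG, the dinucleotide rich in Polycomb-bound promoters, in capitals. The first 4 were covered in all 3 DMSO libraries of GSK-126 at promoters where the response difference was negative at equal length. The Slc1a5 stretch (chr7:16782171-16782330, plus strand) lies in a coding exon and holds 13 CG. Those of Car2 (chr3:14886927-14887086, plus strand, 8 CG), Flnc (chr6:29433838-29433997, plus strand, 5 CG) and Thsd1 (chr8:22227478-22227637, plus strand, 6 CG) are intronic.
Slc1a5: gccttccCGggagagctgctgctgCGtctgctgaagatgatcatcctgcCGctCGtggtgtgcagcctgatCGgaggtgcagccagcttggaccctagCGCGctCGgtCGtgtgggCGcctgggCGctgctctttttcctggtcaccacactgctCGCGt
Car2: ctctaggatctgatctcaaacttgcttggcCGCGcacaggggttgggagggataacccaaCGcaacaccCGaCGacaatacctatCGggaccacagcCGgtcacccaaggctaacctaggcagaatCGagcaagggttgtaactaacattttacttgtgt
Flnc: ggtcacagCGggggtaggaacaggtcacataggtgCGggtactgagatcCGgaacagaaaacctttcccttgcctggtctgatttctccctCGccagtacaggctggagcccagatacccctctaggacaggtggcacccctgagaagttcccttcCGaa
Thsd1: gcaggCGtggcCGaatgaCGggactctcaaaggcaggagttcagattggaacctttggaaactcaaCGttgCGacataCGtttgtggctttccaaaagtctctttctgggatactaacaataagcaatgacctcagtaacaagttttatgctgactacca

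The next 4 were covered in all 3 GSK-126 libraries at promoters where the difference was positive at equal length. The stretches of Cdc14b (chr13:64274152-64274311, minus strand, 12 CG), Prdm1 (chr10:44527313-44527472, minus strand, 5 CG) and Npy (chr6:49822909-49823068, plus strand, 6 CG) are intronic. That of Pkp1 (chr1:135918721-135918880, minus strand) has 70 of its 160 bases in a coding exon and holds 17 CG.
Cdc14b: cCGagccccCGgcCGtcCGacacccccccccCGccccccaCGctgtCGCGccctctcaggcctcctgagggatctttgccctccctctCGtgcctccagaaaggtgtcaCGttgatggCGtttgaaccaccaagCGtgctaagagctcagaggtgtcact
Pkp1: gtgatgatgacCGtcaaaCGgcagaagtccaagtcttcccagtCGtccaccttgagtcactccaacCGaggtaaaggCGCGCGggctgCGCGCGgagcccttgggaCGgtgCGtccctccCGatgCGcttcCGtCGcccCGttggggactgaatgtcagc
Prdm1: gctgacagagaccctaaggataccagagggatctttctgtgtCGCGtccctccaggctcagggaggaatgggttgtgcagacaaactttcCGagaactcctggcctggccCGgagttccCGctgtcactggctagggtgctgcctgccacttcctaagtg
Npy: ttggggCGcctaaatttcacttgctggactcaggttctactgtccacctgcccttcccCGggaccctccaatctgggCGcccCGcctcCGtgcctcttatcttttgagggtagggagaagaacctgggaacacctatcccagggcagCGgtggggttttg

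The last 2, both intronic, were covered in all 3 DMSO libraries of GSK-126 at promoters that moved in opposite directions with the compounds when all peaks were used: Rhbdl3 (chr11:80301775-80301934, plus strand, 4 CG) and Grm2 (chr9:106655554-106655713, minus strand, 1 CG).
Rhbdl3: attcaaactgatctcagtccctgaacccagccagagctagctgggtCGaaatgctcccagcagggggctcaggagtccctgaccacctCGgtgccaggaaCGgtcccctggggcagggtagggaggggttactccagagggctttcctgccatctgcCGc
Grm2: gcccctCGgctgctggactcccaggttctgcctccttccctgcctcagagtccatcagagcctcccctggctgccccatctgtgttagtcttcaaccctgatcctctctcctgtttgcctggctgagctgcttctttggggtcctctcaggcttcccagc

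Over whole windows, CG content did not set these promoters apart in a single direction. The median window held 124 CG at the 13 promoters with a negative difference and 140.5 at the 10 with a positive difference at equal length, beside 132 over all promoters tested there. It was 142.5 at the 108 promoters with a negative difference with all peaks, beside 133 over those tested and 108 over all 21938 windows. These medians are descriptions, without a test.

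At equal length, the response difference was called at 23 of 1766 promoters, 13 with a negative difference (0.736%) and 10 with a positive one (0.566%). GSK-126 on its own lowered coverage at 40 promoters (2.27%) and raised it at 29 (1.64%). GSK-J4 on its own was called at no promoter in either direction (0% lower and 0% higher), with 37 lower and 43 higher at an unadjusted p under 0.05 and a smallest adjusted p of 0.287. Across the tested promoters the responses to the compounds had a Pearson correlation of −0.0126, given as a description because promoters share libraries. The median promoter had a difference of −0.42 points, and its median 95% interval reached 8.08 points to each side, so smaller differences between the responses were mostly not resolvable with 3 libraries a group. Leaving out any of the 12 libraries left 1 to 9 negative and 1 to 8 positive calls, with 1 negative call without GSK-126 replicate 3 (and 5 positive) and without replicates 1 and 2 of the DMSO libraries of GSK-J4 (and 3 and 1 positive). The negative count moved by over 1.5 times without every library other than replicate 3 of the DMSO libraries of GSK-126. Without replicate 3 of both compounds, 1 negative and 0 positive calls were left. On the log2(percent + 1) scale no promoter was called in either direction, and with the replicate number as a block 0 negative and 1 positive were.

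**Figure D1:**
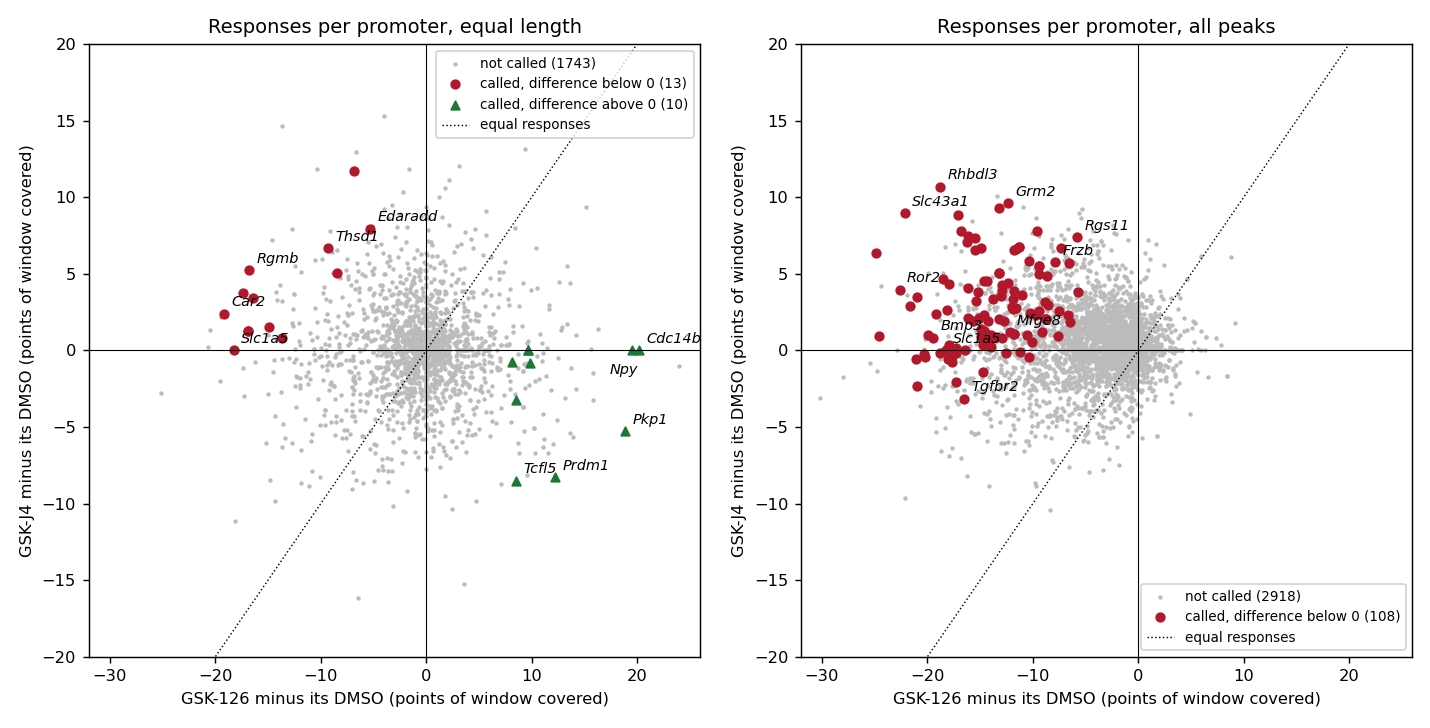
GSK-126 minus its DMSO (horizontal axis, points of the window covered) against GSK-J4 minus its DMSO (vertical axis, points) for each tested promoter, at equal length on the left and with all peaks on the right, where each point is a promoter and the dotted line marks equal responses. The 13 called promoters with a negative difference at equal length lie to the left of 0 for GSK-126 and above 0 for GSK-J4, and the 10 with a positive difference lie to the right of 0 for GSK-126 and at or below 0 for GSK-J4.

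Each of the 13 promoters with a negative difference had a lower mean with GSK-126 than with its DMSO, and at all 13 the mean with GSK-J4 lay above that of its DMSO. The called promoters were sorted by the interval of the GSK-J4 response. A promoter was taken to respond to the writer only where the 95% interval of the GSK-J4 response lay within 0.5 times the size of the GSK-126 response on either side of 0. It was called opposite where the responses had opposite signs and each was at least 5 points. Both names describe coverage with these treatments and do not say which enzyme was inhibited. By this rule 6 of the 13 responded to the writer only (Slc1a5, Car2, Rasd1, Lmo7, Gm9922 and Gm3739), 5 were opposite (Thsd1, Edaradd, Rgmb, Smim3 and Gm3264), and Tmem196 and Flnc were not resolved. Lmo7 and Gm9922 share a window, and Gm3264 and Gm3739 belong to a block of near-identical copies on chromosome 14 among which the authors' alignment could have split reads, so their values are uncertain.

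Slc1a5, which encodes a transporter of glutamine and other neutral amino acids, gave the clearest writer-only pattern. Its peaks covered 0, 0 and 3.03% of the window in the GSK-126 libraries, against 19.3, 20.4 and 18.1% in their DMSO libraries. Coverage was 17.6, 14.9 and 12.6% in the GSK-J4 libraries, against 16.5, 14.4 and 14.2% in their DMSO libraries. The GSK-126 libraries did not overlap any other group, while the GSK-J4 libraries and their DMSO libraries overlapped. The response difference was −18.3 points (SE 2.30, adjusted p = 0.00974), made up of −18.2 points for GSK-126 and 0.0222 points (95% interval −3.59 to 3.63) for GSK-J4. Untreated DIV5 libraries had 23.6, 23.2 and 16.7%. With all peaks, coverage in the 12 libraries was the same.

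Car2, encoding cytosolic carbonic anhydrase 2, covered 0, 3.98 and 0% of the window in the GSK-126 libraries, against 20.9, 21.8 and 18.8% in their DMSO libraries. With GSK-J4 the values were 9.03, 16.3 and 17.3%, against 15.4, 6.30 and 13.7% in their DMSO libraries, and the groups overlapped. Its difference was −21.6 points (SE 3.94, adjusted p = 0.0388). Rasd1, a Ras-related GTPase first found as induced by dexamethasone, had 8.73, 0.817 and 3.77% with GSK-126, against 20.03, 20.4 and 17.6% with its DMSO. The corresponding GSK-J4 values were 16.5, 17 and 22.9%, against 15.3, 18.2 and 18.4%. Lmo7, encoding a LIM domain protein that associates with the actin cytoskeleton, had 0, 9.85 and 0% with GSK-126, against 20.9, 18.4 and 21.3% with its DMSO. Replicate 2 was thus the only GSK-126 library with a peak there at equal length. The GSK-J4 response was 1.51 points (95% interval −3.69 to 6.70) at Rasd1 and 1.28 points (95% interval −4.41 to 6.96) at Lmo7.

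Tmem196 and Flnc lost coverage with GSK-126 by a similar amount, but the interval of their GSK-J4 response was too wide for the writer-only rule. Tmem196, a predicted membrane protein, covered 3.03, 0 and 0% of the window in the GSK-126 libraries, against 18.5, 18.4 and 15.3% in their DMSO libraries, and 15.1, 22.4 and 16.4% in the GSK-J4 libraries, against 15.97, 16.1 and 11.5% in their DMSO libraries. Flnc encodes filamin C, an actin cross-linking protein best known from muscle. Its GSK-126 libraries had 0, 5.08 and 3.38%, against 21.5, 21.2 and 17.8% with DMSO. Its GSK-J4 libraries had 10.2, 21.1 and 20.1%, against 13.1, 10.5 and 16.6% with DMSO. The GSK-J4 response was 3.44 points (95% interval −1.40 to 8.29) at Tmem196 and 3.72 points (95% interval −2.72 to 10.2) at Flnc.

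At the 4 opposite promoters named here, coverage was low in the DMSO libraries of GSK-J4. Thsd1, encoding a membrane protein with a thrombospondin repeat, covered 0, 4.43 and 0% of the window in the GSK-126 libraries, against 9.13, 13.5 and 9.68% in their DMSO libraries. Coverage was 8.23, 11 and 12.6% in the GSK-J4 libraries, against 5.55, 0 and 6.23% in their DMSO libraries. At equal length GSK-126 was below, and GSK-J4 above, every library of its own DMSO set. Its difference was −15.99 points (SE 3.09, adjusted p = 0.0443), with GSK-126 at −9.29 points and GSK-J4 at 6.69 points (95% interval 1.83 to 11.6). In the uncut lists all 3 GSK-126 libraries and all 3 DMSO libraries of GSK-J4 had a peak at Thsd1. Its values of 0 thus came from the cut to equal length. With all peaks, Thsd1 was called neither in the main test nor in any of 21 alternatives. Rgmb, a repulsive guidance molecule that acts as a co-receptor of bone morphogenetic proteins (BMPs), had no coverage in any GSK-126 library, against 22.1, 16.1 and 12.2% in their DMSO libraries. With GSK-J4 it had 11.9, 7.82 and 0%, against 3.93, 0 and 0%, and here the groups overlapped. All 3 DMSO libraries of GSK-J4 had a peak at Rgmb in their uncut lists too.

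At 2 of the opposite promoters the GSK-J4 response was the larger. Edaradd, the adaptor of the ectodysplasin receptor in skin appendages, had 7.03, 8.95 and 12.5% with GSK-J4, against 0, 0 and 4.67% with its DMSO, and 0, 2.18 and 0% with GSK-126, against 6.32, 7.40 and 4.37%. Smim3, a small integral membrane protein, had 7.02, 16.5 and 12.4% with GSK-J4, against 0, 0 and 0.817%, and 8.73, 2.53 and 2.03% with GSK-126, against 9.05, 11.1 and 13.6%. Neither simple response passed the test at either gene (adjusted p = 0.2 and 0.238 for GSK-126, 0.328 at both for GSK-J4). With all peaks the DMSO libraries of GSK-J4 had 13.8, 8.77 and 13.5% at Edaradd and 18.4, 16.2 and 17.9% at Smim3, and the GSK-J4 responses were −1.51 and −5.49 points. At both genes the DMSO libraries of GSK-J4 thus had peaks in their uncut lists that the cut to equal length left out, and neither gene was opposite with all peaks. No GSK-J4 response passed the test at any of the 13 promoters. Its libraries lay wholly above their DMSO libraries at 4 of them, against 3.51% of all promoters tested, which is only a description because these values are part of the difference that chose the promoters.

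**Figure D2:**
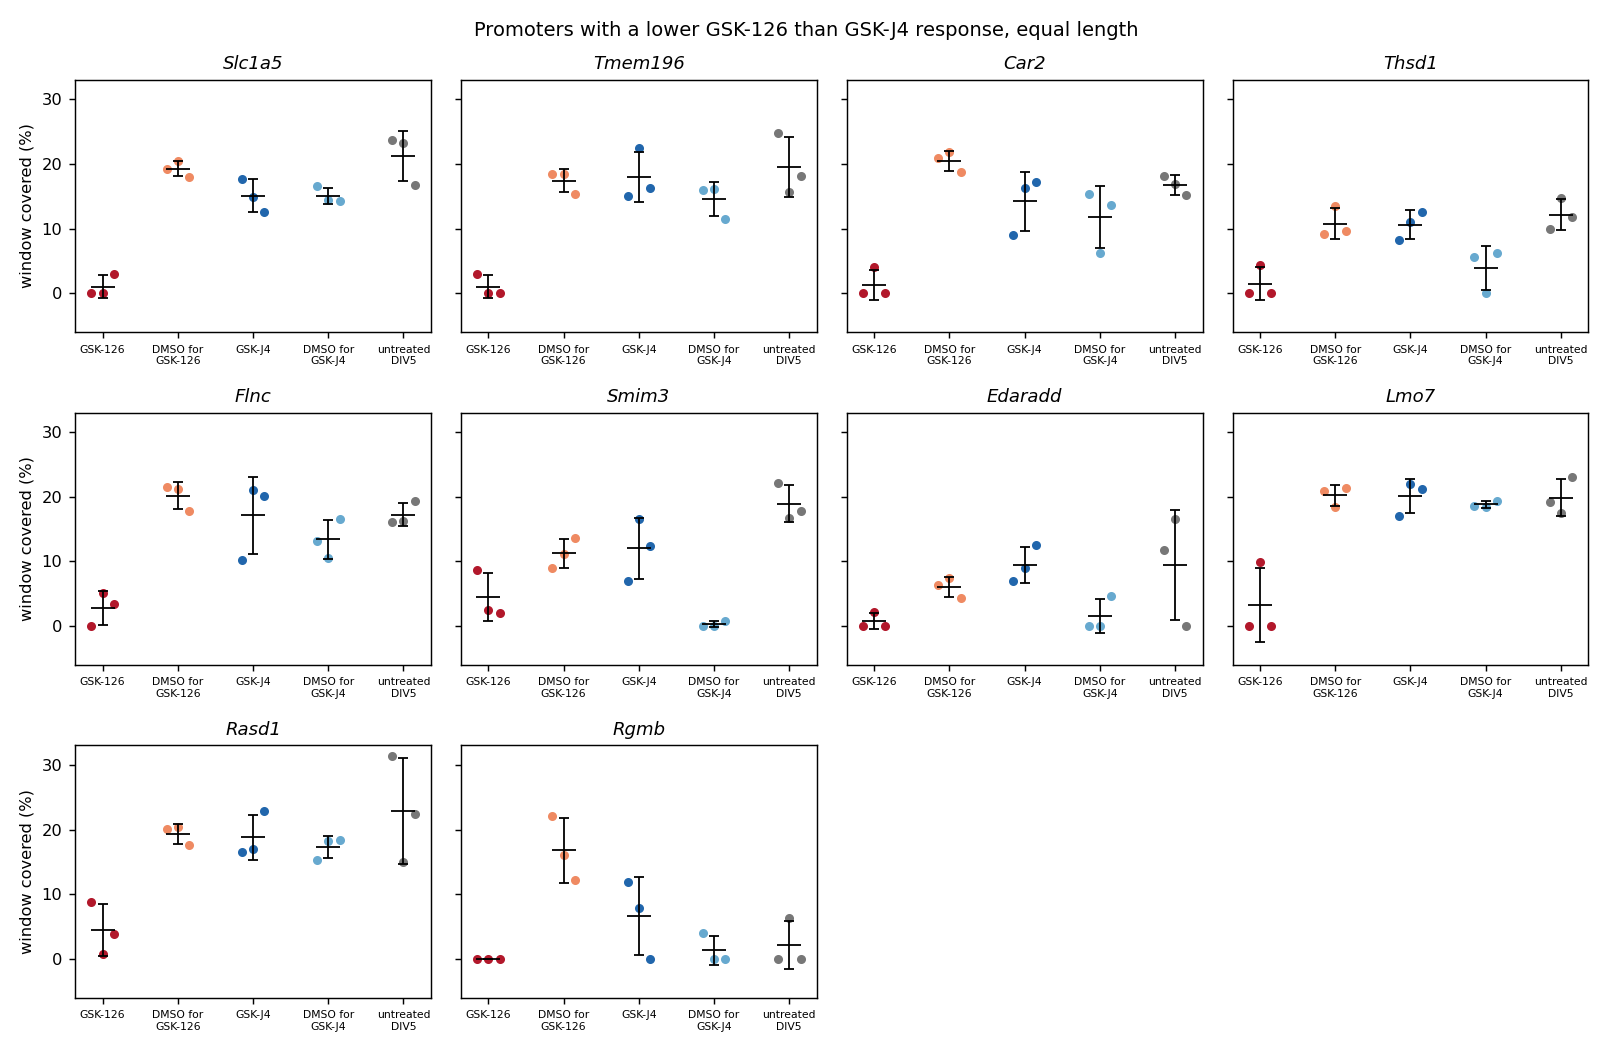
Percentage of the window covered at equal length at the 10 named promoters with a negative response difference, by group, with 1 point per library and the mean and SD of 3 libraries as bars. The GSK-126 libraries lie between 0 and 9.85%, below the mean of their DMSO libraries at all 10 promoters, while the GSK-J4 libraries lie around or above theirs.

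At equal length, the 10 promoters with a positive difference were higher with GSK-126 than with its DMSO, and all 10 passed the test of GSK-126 alone. GSK-J4 means were equal to or below those of their DMSO libraries. Cdc14b, Slc6a20a, Ccr9, Npy, Bnc1 and Gas6 met the writer-only rule, Tcfl5, Pkp1 and Prdm1 the opposite rule, and Ccdc194 neither. All 6 writer-only promoters had coverage in fewer than 3 of the other 9 libraries, so they passed the filter on covered libraries only through the GSK-126 group, where they are high, and had to differ. At 3 of them, Cdc14b, Slc6a20a and Ccr9, the other 9 libraries were all at 0. Their count supports nothing by itself, and their values are descriptions. Slc6a20a and Ccr9 share a window. Cdc14b, a dual-specificity phosphatase, covered 19.3, 20.02 and 21.4% with GSK-126 and had no coverage in any of the other 9 libraries, with a difference of 20.2 points (SE 1.51, adjusted p = 0.000151). Npy, encoding neuropeptide Y, covered 18.5, 19.7 and 28.5% with GSK-126, against 3.48, 0 and 4.82% with its DMSO, and had none in the 6 libraries of the GSK-J4 experiment or in untreated DIV5 libraries. Slc6a20a, a transporter of proline, covered 10.3, 8.42 and 10.4% with GSK-126 and nothing elsewhere.

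The remaining writer-only genes covered less of their windows. Bnc1, encoding the zinc finger protein basonuclin 1, had 11.4, 10.9 and 7.32% with GSK-126 and none with its DMSO. Gas6, the ligand of the TAM receptor tyrosine kinases, had 10.2, 7.65 and 8.38% with GSK-126, against 1.87, 0 and 0% with its DMSO. In each case 1 library of the GSK-J4 experiment, a DMSO library, had any coverage (2.50% at Bnc1 and 2.27% at Gas6). Ccdc194, a coiled-coil protein, covered 9.10, 6.78 and 10.5% of the window in the GSK-126 libraries, against 0, 0.833 and 0% in their DMSO libraries, and 0, 2.90 and 0% in the GSK-J4 libraries, against 4.98, 6.53 and 1.07% in their DMSO libraries.

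Among the opposite genes, the DMSO libraries of GSK-J4 held coverage that those of GSK-126 lacked. Tcfl5, a basic helix-loop-helix factor known from testis, covered 6.18, 9.62 and 9.70% of the window in the GSK-126 libraries, against 0, 0 and 0% in their DMSO libraries. It covered 5.37, 5.30 and 0% in the GSK-J4 libraries, against 11.9, 12.5 and 11.7% in their DMSO libraries, again without overlap. Prdm1 encodes BLIMP1, a transcriptional repressor of lymphoid and germ cell development. It covered 14.9, 10.2 and 11.7% of the window in the GSK-126 libraries, against 0, 0 and 0% in their DMSO libraries, and 9.67, 6.37 and 0% in the GSK-J4 libraries, against 14.1, 13.9 and 12.8% in their DMSO libraries. Pkp1, encoding the desmosomal protein plakophilin 1, covered 21.4, 17.2 and 18.02% of the window in the GSK-126 libraries, against 0, 0 and 0% in their DMSO libraries, and 3.27, 0 and 0% in the GSK-J4 libraries, against 0, 10.9 and 8.20% in their DMSO libraries. The differences were 16.99 points (SE 2.36, adjusted p = 0.0153), 20.5 points (SE 3.16, adjusted p = 0.0165) and 24.1 points (SE 3.56, adjusted p = 0.0165) in this order. GSK-J4 responses were −8.49, −8.26 and −5.28 points. The GSK-J4 libraries lay wholly below their DMSO libraries at 2 of the 10 promoters, against 3.11% of those tested, again a description of values that chose the promoters. The DMSO sets themselves differed at equal length at 9 promoters that were lower (0.51%) and 1 that was higher (0.0566%) in the DMSO libraries of GSK-126, and Tcfl5 and Prdm1 were among the 9.

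**Figure D3:**
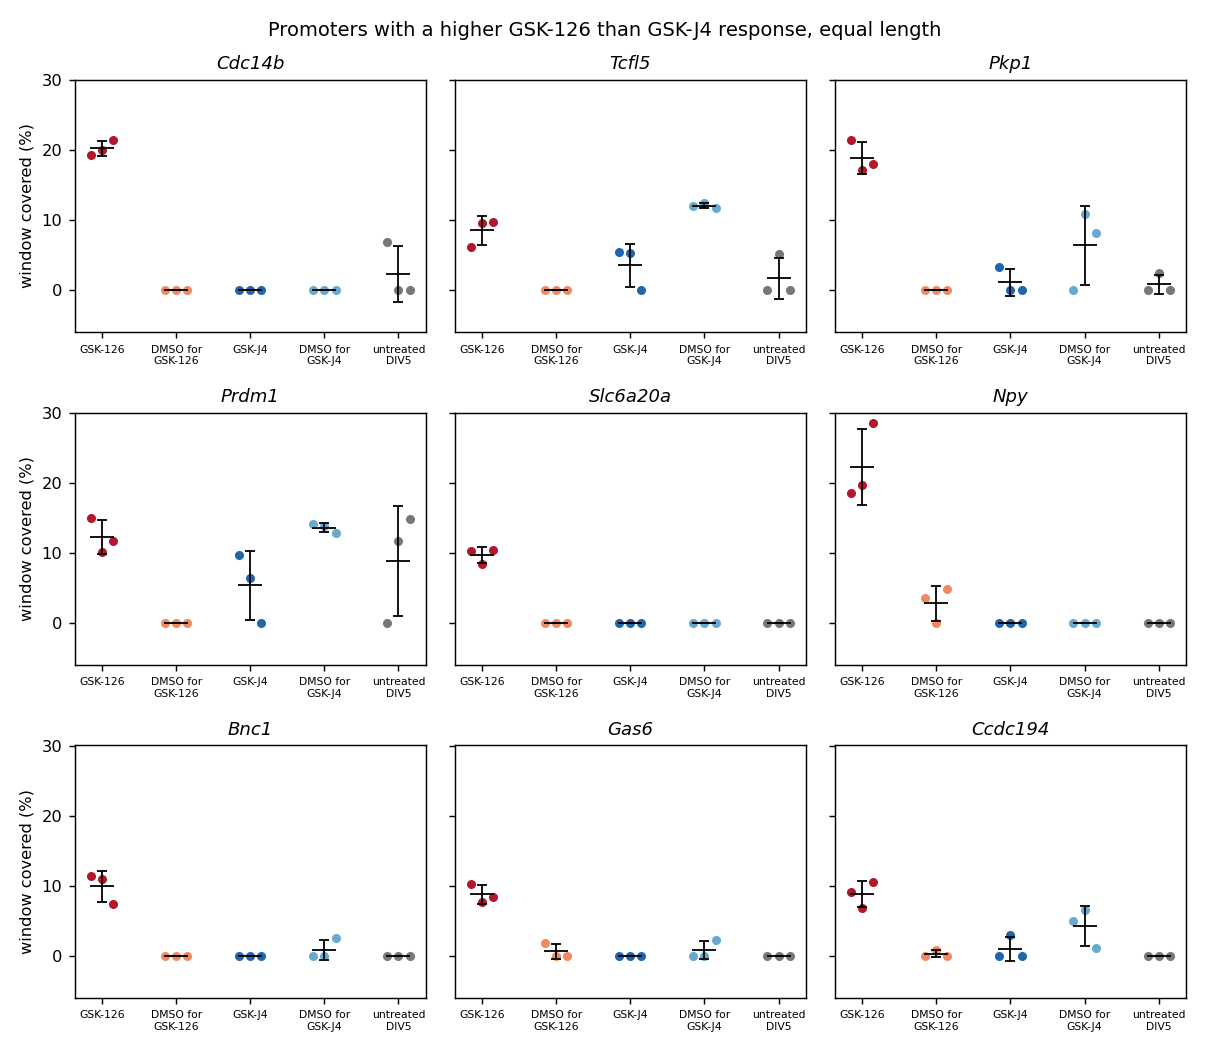
Percentage of the window covered at equal length at the 9 named promoters with a positive response difference, by group, with 1 point per library and the mean and SD of 3 libraries as bars. All GSK-126 libraries lie at or above 6.18%, their DMSO libraries at or below 4.82%, and at Tcfl5 and Prdm1 the DMSO libraries of GSK-J4 lie at 11.7 to 14.1%.

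How a promoter entered the equal-length set differed between the libraries. The weakest peak kept had a −log10 p of 4.63 to 5.22 in the GSK-126 libraries, against 5.39 to 5.44 in their DMSO libraries, and 5.12 to 5.57 in the GSK-J4 libraries, against 5.29 to 5.35 in theirs. At all 10 promoters with a positive difference, every DMSO library of GSK-126 had a peak in its uncut list. At 7 of the 10 the strongest peak of all 3 GSK-126 libraries had a higher −log10 p than that of any of their DMSO libraries, and at 6 it was at or above 5.44, the highest of the DMSO minimums. At Cdc14b, the strongest peak had a −log10 p of 5.33 to 5.63 with GSK-126, against 5.00 to 5.10 with its DMSO. With all peaks Cdc14b covered 19.3, 20.02 and 21.4% with GSK-126, against 12.5, 12.5 and 9.07% with its DMSO, and its difference was 2.76 points (adjusted p = 0.662). None of the 10 was called with all peaks, where 7 kept a positive difference and the lowest difference was −8.6 points. There the mean with GSK-126 lay above that of its DMSO at 8 of the 10 and below it at 2. With 1 minimum of 5.57 for all libraries in place of equal length, 5 negative and 3 positive promoters were called, of which 5 and 1 were among the 13 and 10. The part of the different minimums in the positive differences was not tested further.

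The untreated DIV5 libraries entered no contrast, but the GSK-126 values set against them here are those that chose the promoters, so the counts are descriptions. The GSK-126 libraries lay wholly below the untreated ones at 11 of the 13 promoters with a negative difference, where 8.49% of all tested promoters did. They lay wholly above at 9 of the 10 with a positive difference, where 7.76% did. The exceptions were Rgmb and Edaradd below and Prdm1 above. At Prdm1 2 of the untreated libraries had 11.6 and 14.8%, within the range of the GSK-126 libraries.

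With all peaks, the response difference was called at 108 of 3026 promoters, and at every one it was negative (3.57% lower, 0% higher, with 703 lower and 6 higher at an unadjusted p under 0.05). GSK-126 alone lowered coverage at 530 promoters (17.5%) and raised it at 7 (0.231%). GSK-J4 alone was again called at none (0% lower and 0% higher, with 32 and 41 at an unadjusted p under 0.05). The median over all tested promoters was −3.94 points, so the 108 lay at the far end of a broad shift. All 108 were also called lower with GSK-126 alone, 35 of them with no coverage in any GSK-126 library, as had 843 of all 3026 tested. The mean with GSK-J4 lay above that of its DMSO at 93 and below it at 15. By the same rules 45 of the 108 responded to the writer only, 26 were opposite and 37 were not resolved. The count was 22 without GSK-126 replicate 2, 23 without GSK-126 replicate 3, 37 and 50 without replicates 2 and 3 of the DMSO libraries of GSK-J4, 56 without replicate 2 of the DMSO libraries of GSK-126, 64 without GSK-126 replicate 1, 65 without GSK-J4 replicate 3 and 248 without GSK-J4 replicate 1. It was 20 without replicate 3 of both compounds and 0 with the replicate number as a block.

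Among the writer-only promoters, Bmp3, a BMP family ligand, covered 3.77, 4.18 and 3.30% of the window in the GSK-126 libraries, against 23.8, 24.9 and 20.9% in their DMSO libraries. Coverage was 15.2, 16.5 and 23.6% in the GSK-J4 libraries, against 16.9, 20.6 and 15.3% in their DMSO libraries, and these groups overlapped. The difference was −20.3 points (SE 3.18, adjusted p = 0.0164). Mfge8, a secreted protein that bridges dying cells and phagocytes, had no coverage in any GSK-126 library, against 11.3, 13.8 and 11.4% with DMSO, and 9.75, 12.8 and 10.6% with GSK-J4, against 9.18, 8.23 and 12.1%. Npy2r, a receptor of neuropeptide Y, likewise had none with GSK-126, against 16.9, 16.8 and 13.2% with DMSO, and 10.9, 10.4 and 13.9% with GSK-J4, against 13.1, 10.6 and 5.78%. Ror2, a receptor tyrosine kinase for WNT5A, had 4.65, 2.47 and 7.23% with GSK-126, against 31.9, 28.1 and 22.3%. At these genes the GSK-126 libraries lay apart from all of their DMSO libraries while GSK-J4 responses were between 0.839 and 3.97 points. At equal length none of these genes was called in the main test. Of 23 alternatives there, 1 called Bmp3 and 0 called Mfge8, Npy2r or Ror2. The difference at Ror2 took both signs over them, from −6.07 to 16.2 points.

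Pcsk6, a proprotein convertase, and Rassf1, a Ras-association domain protein, were of another kind, since coverage was high in a single set of DMSO libraries. Pcsk6 covered 3.02, 0 and 2.12% of the window in the GSK-126 libraries, against 22.8, 21.7 and 14.5% in their DMSO libraries, but 7.28, 3.77 and 5.03% in the GSK-J4 libraries, against 0, 2.30 and 0.867% in their DMSO libraries. Rassf1 covered 2.43, 0 and 0% of the window in the GSK-126 libraries, against 15.9, 16.03 and 15.3% in their DMSO libraries, but 0, 6.17 and 3.25% in the GSK-J4 libraries, against 0, 2.47 and 2.78% in their DMSO libraries. Satb1, a chromatin organiser, had 1.05, 0 and 3.38% with GSK-126, against 16.2, 18.1 and 15.8%, and 6.60, 5.80 and 12.3% with GSK-J4, against 5.37, 5.62 and 2.35%, and was not resolved by the rules. Over the 108, the DMSO libraries of GSK-126 exceeded those of GSK-J4 by a median of 8.25 points, beside 2.61 over all tested promoters. This DMSO difference was itself called at 30 of the 108, all higher in the DMSO libraries of GSK-126, where 1.22% of tested promoters were called higher and 0% lower. Response and starting level cannot be told apart at these promoters, because each compound had a DMSO set of its own.

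At the 26 opposite promoters of the all-peaks set, coverage fell with GSK-126 while the GSK-J4 mean was at least 5 points above its DMSO. Rhbdl3, a rhomboid-like membrane protein, covered 0, 0 and 1.58% of the window in the GSK-126 libraries, against 21.6, 19.2 and 17.1% in their DMSO libraries. It covered 19.4, 11.7 and 22.6% in the GSK-J4 libraries, against 8.53, 7.57 and 5.57% in their DMSO libraries. There was no overlap on either side, and the difference of −29.5 points (SE 3.46, adjusted p = 0.0112) consisted of −18.8 points for GSK-126 and 10.7 points (95% interval 5.25 to 16.1) for GSK-J4. Grm2, a metabotropic glutamate receptor known in cerebellum from Golgi cells, covered 7.53, 0 and 0% of the window in the GSK-126 libraries, against 15.1, 15.2 and 14.3% in their DMSO libraries. It covered 12.7, 18.6 and 20.1% in the GSK-J4 libraries, against 10.9, 7.55 and 4.18% in their DMSO libraries, also without overlap. Its difference was −21.9 points (SE 3.68, adjusted p = 0.0188). The strongest peak at Grm2 had a −log10 p of 4.78 to 5.24 with GSK-J4, against 5.10 to 5.33 with its DMSO. The cut to equal length left no peak there in either of these groups. At equal length Grm2 was not called in the main test and was called in 1 of 19 alternatives.

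Pcdh10, a protocadherin, had 7.03, 6.83 and 3.35% with GSK-126, against 18.4, 22.97 and 22.3%, and 14.4, 12.8 and 23.3% with GSK-J4, against 9.88, 9.92 and 8.73%. Gli3, a transcription factor of the Hedgehog pathway, had 0, 0 and 5.77% with GSK-126, against 23.2, 16.6 and 16.4%, and 5.52, 13.9 and 22.1% with GSK-J4, against 5.47, 5.68 and 6.85%. At Pcdh10 the GSK-J4 libraries lay above all their DMSO libraries, and at Gli3 they overlapped. At both genes, and at Rhbdl3 and Grm2, GSK-J4 replicate 3 had the highest value of its group. Its peak list covered 3.11 Mb, against 1.40 and 1.62 Mb in replicates 1 and 2. The part of this longer list in the GSK-J4 responses was not tested at single promoters. Gng4, a G protein gamma subunit, had 11.9, 12.9 and 22.4% with GSK-J4, against 6.23, 9.85 and 4.50%, and 6.35, 2.27 and 4.27% with GSK-126, against 18.8, 29.7 and 15.7%. Rgs11, which ends signalling by G protein alpha subunits, was the only gene of the 108 with a larger GSK-J4 than GSK-126 response, 7.38 against −5.81 points. Trpc6, a cation channel, Slc43a1, an amino acid transporter, and Wnt16 had GSK-J4 responses of 7.82, 8.95 and 7.48 points, and GSK-126 responses of −9.62, −22.1 and −16.2 points. The GSK-J4 responses had an adjusted p of 1 throughout, so no promoter showed an opposite response by a test of each compound. Over the 108, the GSK-J4 libraries lay wholly above their DMSO libraries at 20, against 2.41% of tested promoters, a description of values that chose the 108.

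**Figure D4:**
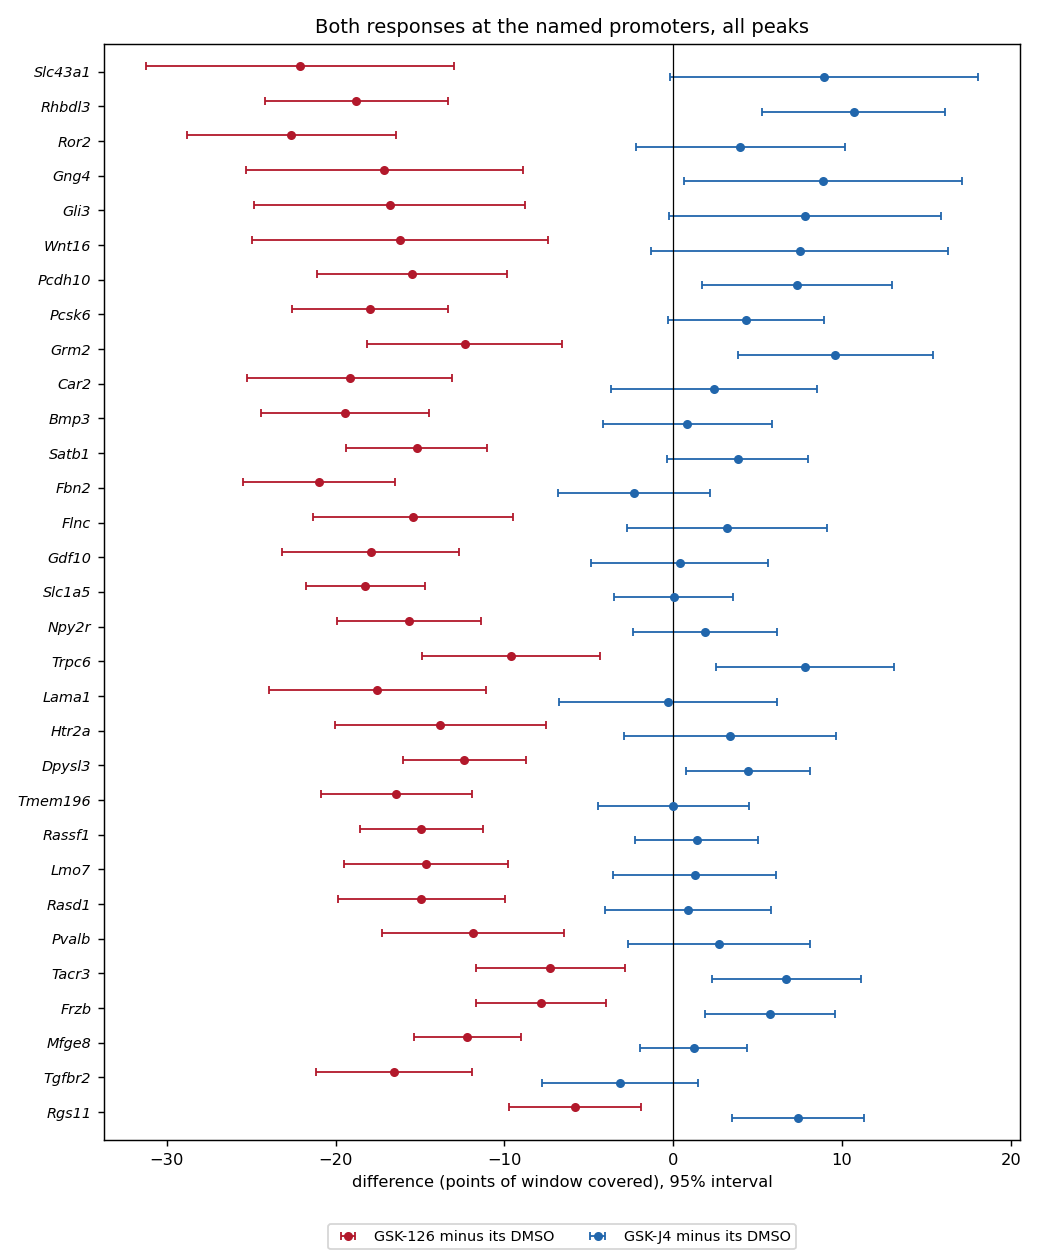
Differences between each compound and its DMSO with all peaks (points of the window covered, with 95% intervals from limma) at the named promoters with a called response difference, ordered by the size of that difference. All GSK-126 intervals lie below 0, and the GSK-J4 intervals lie above 0 at Rhbdl3, Grm2, Pcdh10, Rgs11 and others but cover 0 at Slc1a5, Bmp3 and Npy2r.

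The peak sets shared part of their calls. Of the 13 promoters with a negative difference at equal length, 12 also had one with all peaks and 9 were called there. The exception in sign was Smim3. Of the 108, 94 could be tested at equal length, 86 had a negative difference and 9 were called, which is 8.33% of the 108 and 69.2% of the 13. Slc1a5, Tmem196, Car2, Flnc, Lmo7 and Rasd1 were among the 9. Against untreated DIV5 libraries, the GSK-126 libraries lay wholly below at 83 of the 108, where 26.6% of all tested promoters did, again with the GSK-126 values that chose them.

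The differences were concentrated just downstream of the 5′ end. At the 13 promoters with a negative difference at equal length, the 200 bp bin centred 300 bp into the gene was covered to 19.2% on average over promoters and libraries with GSK-126 and 77.7% with its DMSO, and to 77.9% with GSK-J4 and 57.3% with its DMSO. The mean in untreated DIV5 libraries was 77.7%. At the 10 promoters with a positive difference, the same bin was covered to 57.0% with GSK-126, whereas the DMSO libraries of GSK-126 reached at most 6.47%, at 900 bp. At the 108 promoters of the all-peaks set it was covered to 9.39% with GSK-126 and 55.7% with its DMSO. There GSK-J4 peaked at 37.8%, at 700 bp, and its DMSO at 27.4%, at 500 bp. The peaks that remained with GSK-126 at the 13 promoters were short, with a median length of 232.5 bp for the strongest peak of a window, against 963 bp with DMSO. For GSK-J4 the lengths were 832 bp, against 722 bp. Levels and lengths in these profiles are part of the coverage that chose the promoters, so they are descriptions only. No values over all tested promoters are set beside them.

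**Figure D5:**
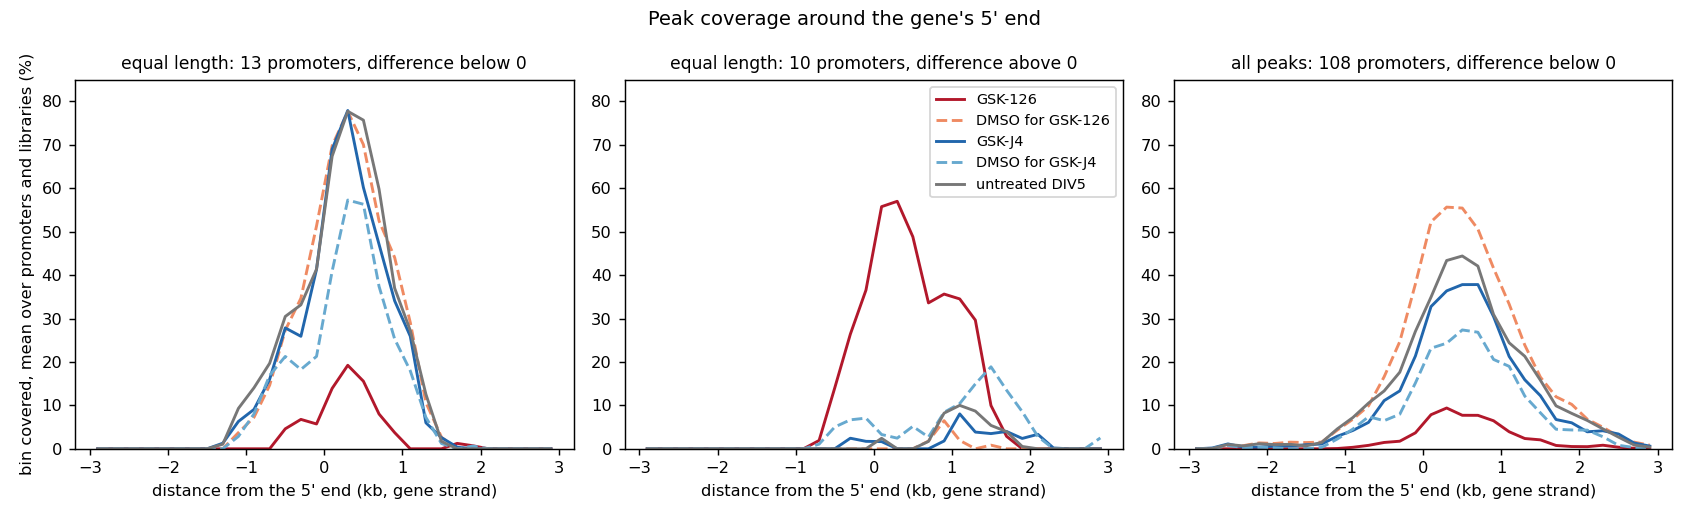
Mean percentage of each 200 bp bin covered over promoters and libraries (vertical axis) by distance from the 5′ end of the gene (horizontal axis, kb along the gene's strand), for the called promoters of each set and direction, with 1 line per group of 3 libraries. At 300 bp the GSK-126 line is the lowest in the left and right panels, at 19.2% and 9.39%, and the highest in the middle panel, at 57.0%.

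Gene groups were read by counts against the 3.57% of all tested promoters that were called lower with all peaks. Of the BMP and TGF-beta pathway genes, which include ligands, receptors and antagonists of a family of secreted differentiation signals, 3 of 24 tested promoters were called, the ligands Bmp3 and Gdf10 and the receptor gene Tgfbr2. Their median difference was −7.77 points, beside −3.94 over all tested promoters. Gdf10 covered 3.48, 0 and 0% with GSK-126, against 15.2, 21.8 and 20.3%, and 10.6, 7.45 and 13.9% with GSK-J4, against 6.95, 10.7 and 13.2%. Tgfbr2 covered 0, 3.43 and 3.80% with GSK-126, against 21.1, 17.2 and 18.6%, and 9.27, 17.2 and 13.2% with GSK-J4, against 15.8, 18.1 and 15.2%. Both met the writer-only rule. Of the Wnt ligands, receptors and antagonists, 2 of 23 were called (median −4.37 points), Wnt16 and Frzb. Frzb, a secreted antagonist that binds Wnt ligands, had no coverage with GSK-126, against 8.20, 10.7 and 4.68%. With GSK-J4 it had 5.18, 8.57 and 9.17%, against 2.75, 0 and 2.95%. At equal length no promoter of either group was called, of 19 BMP and TGF-beta and 17 Wnt promoters tested. The median differences there were −0.75 and −1.02 points, beside −0.42 over all tested promoters.

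Among neuropeptides and receptors of peptides and monoamines, 3 of 58 tested promoters were called lower with all peaks (Npy2r, Tacr3 and Htr2a, median −5.64 points). At equal length the ligand gene Npy was called higher, alone of 43, and the median difference of the group was −0.122 points. Npy and its receptor gene Npy2r differed in direction, but in different peak sets. Tacr3, the receptor of neurokinin B, had 7.90, 4.15 and 9.48% with GSK-126, against 12.8, 15.4 and 15.2%, and 15.6, 13.8 and 17.9% with GSK-J4, against 12.4, 6.28 and 8.45%. Htr2a, a serotonin receptor, had none with GSK-126, against 14.7, 11.9 and 14.8%. Single members were called among transporters of amino acids, neurotransmitters and glucose (Slc1a5, of 24), cadherins and protocadherins (Pcdh10, of 16), glutamate receptors (Grm2, of 13), collagens and laminins (Lama1, of 25) and Purkinje cell and interneuron markers (Pvalb, of 7). These shares rest on too few promoters to set beside 3.57%.

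None was called among 35 potassium channel genes, 19 axon guidance genes, 19 transcription factors of other lineages, 14 granule precursor and cell cycle genes, 7 genes of mature granule neurons, 5 glial, microglial and vascular markers, 4 GABA-A receptor subunits, 3 ribosomal protein genes, 3 Polycomb and KDM6 genes or 2 Hox genes that could be tested with all peaks. A peak in any of the 12 libraries was found at 6 of 39 Hox genes and 37 of 92 lineage transcription factors, beside 30.7% of all promoters. The axon guidance genes had a median difference of −7.88 points with no call, and 17 of the 19 were negative, beside 2537 of all 3026 tested. At equal length their median difference was −2.38 points over 13 tested promoters, 8 of them negative, again with no call.

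Of 16 genes that the study used as examples, 6 could be tested with all peaks and none was called. Atoh1, the transcription factor that defines granule precursors, had no coverage in any GSK-126 library, against 9.10, 11.98 and 14.4% with DMSO, and 0, 0 and 8.25% with GSK-J4, against 11.9, 2.78 and 0%. GSK-126 alone passed the test at this promoter (adjusted p = 0.0284), but the response difference of −9.68 points did not (adjusted p = 0.22). Gli2, another Hedgehog factor, also passed for GSK-126 alone (adjusted p = 0.0255), with no coverage in any GSK-126 library, against 9.77, 4.87 and 7.17%. Its GSK-J4 response had the same sign, −4.49 points (95% interval −8.64 to −0.353), and the response difference was −2.77 points (adjusted p = 0.543). Myc, Jag1, Grin2c and Gabrd had differences of −4.67, −6.97, −7.91 and −3.39 points, with adjusted p of 0.491, 0.309, 0.364 and 0.625. At equal length 2 of the 16 could be tested, Grin2c and Gli2, and neither was called. Both had a positive difference there (median 1.7 points), so the sign at these genes depended on the peak set.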

How the data were processed

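H3K27me3 CUT&RUN peak lists of 12 DIV5 libraries were used (GSK-126, its DMSO, GSK-J4 and its DMSO), with the 3 untreated DIV5 libraries beside them and the other time course libraries for levels only. Before deposit, the authors ran FastQC and Trimmomatic 0.38 on the reads, used STAR 2.7.2b for alignment to mm10, and called peaks library by library with MACS2 2.1 in its broad mode. The control used for the calls is not given in the sources used here. The deposited lists give for each peak a −log10 p-value, a −log10 q-value and a fold enrichment, a ratio over local background. The deposited peak score was not used. The lowest −log10 q deposited was 1.00. Read counts, on which the authors ran DESeq2 1.36.0, are not analysed here, and depth is unknown, so a window without a peak is one below the caller's threshold.

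Coverage of each window was computed with Python 3.11.15, pandas 2.3.3 and numpy 2.4.6, using the GENCODE annotation of the same build. Equal length ranks relative strength and removes differences in the amount called. limma 3.58.1 in R 4.3.3 fitted the 4 groups (lmFit, contrasts, robust eBayes, two-sided), with Benjamini-Hochberg adjustment over all promoters tested in a peak set. The fit was also run on simulated data with normal noise and coverage raised off the floor of 0. There it recovered 25% of 10-point and 79% of 20-point changes at equal length, and 28.5% and 80.5% with all peaks. False calls were 1.96% and 3.66% of its calls at equal length, and 3.39% and 8% with all peaks. Many called promoters had values of 0, so the simulation does not show how the fit behaves at them. Whole-library values used exact permutation within each experiment. Named genes were the 12 (equal length) or 10 (all peaks) called promoters of each direction that ranked first by adjusted p, up to 8 opposite promoters per direction, up to 6 with a larger GSK-J4 response, up to 4 called members of each list and the study's examples, passing over genes named Gm with digits or ending in Rik. A gene that met this rule is not reported here. Genes outside this rule that are named were chosen after their values were seen. The members, lists and rules were chosen with earlier results of these data known. Alternatives were the replicate number as a block, other minimums of covered libraries, 1 kb flanks, a −log10 q of at least 2, log2(percent + 1), ranking by fold enrichment, the length of each experiment's own shortest list, eBayes without the robust option, the 6 libraries of an experiment alone, and leaving out each library. A single −log10 p minimum, leaving out replicate 3 of both compounds and the direct contrast of GSK-126 with GSK-J4 were added after seeing the data.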

Additional observations from a re-analysis of the deposited data

Results flagged for a closer look

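The interaction test found a difference between the GSK-126 and GSK-J4 responses at 13 promoters with a lower GSK-126 response and 10 with a higher one at equal length, and at 108 with a lower one when all peaks were used (limma, adjusted p under 0.05). Each of these counts is given because the same contrast, compound against DMSO, differed between the experiments by a test of the difference itself. Of the 10, however, 6 passed the filter on covered libraries only through the GSK-126 group and had to differ. The test supports nothing for these 6.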

How the results depend on the processing

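Read depth is unknown, and 3 libraries a group left a median 95% interval of 8.08 points to each side of a response difference at equal length. Within the equal-length set, the 13 negative and 10 positive promoters kept their direction under each alternative that tested them, except when peaks were ranked by fold enrichment, where 12 of 13 kept it and Flnc reversed to 2.63 points. Several alternatives tested only part of the promoters. Of the 10 positive ones, ranking by fold enrichment tested 1 and a −log10 q of at least 2 tested 0. Coverage in at least 6 libraries tested 4 of them, and 1 −log10 p minimum tested 6. Of the 13 negative ones, a −log10 q of at least 2 tested 4. With all peaks, 12 of the 13 and 7 of the 10 kept their direction. Counts of calls moved far more. At equal length the negative and positive counts were 0 and 1 with the replicate number as a block, 2 and 3 for promoters covered in at least 6 libraries, 2 and 0 at a −log10 q of at least 2, 0 and 0 for log2(percent + 1), 4 and 0 when ranked by fold enrichment, 5 and 3 with 1 −log10 p minimum for all libraries, and 1 and 0 without replicate 3 of both compounds. Promoters covered in at least 1 library gave 3 negative calls, and windows of 1 kb on each side gave 6 positive ones. Leaving out 1 library gave 1 to 9 negative and 1 to 8 positive calls. With all peaks, the 108 became 0 with the block, 65 for promoters covered in at least 1 library, 1 at a −log10 q of at least 2, 20 without replicate 3 of both compounds and 29 (with 5 positive) when GSK-126 was compared with GSK-J4 directly, and leaving out 1 library gave 22 to 248. Of the 108, 105 kept a negative difference in the direct comparison and 27 of 28 at the higher −log10 q. GSK-126 alone at equal length gave 3 lower and 2 higher promoters with the block, and 20 to 49 lower and 13 to 31 higher without 1 library. At equal length, the counts of 0 for GSK-J4 alone stayed at 0 without any 1 of its 6 libraries and with the block. The sources used here do not say whether libraries with the same replicate number share a culture or litter. Same-numbered libraries deviated together with correlations of −0.0380 to 0.0719 at equal length and −0.0435 to 0.116 with all peaks. Such correlations from 3 libraries a group cannot decide it, so the loss of calls with the block remains a limit of these results. Of the alternatives at equal length that tested it, Slc1a5 was called in 20 of 23, Tmem196 in 15 of 24, Cdc14b in 15 of 16, Pkp1 in 17 of 22, Tcfl5 in 15 of 22, Prdm1 in 12 of 22 and Slc6a20a in 10 of 16. The other named promoters called there were called in few: Car2, Edaradd and Rasd1 in 4 of 23, Thsd1 and Rgmb in 3 of 23, Flnc and Lmo7 in 5 of 23, Smim3 in 5 of 24, Npy in 5 of 21, Bnc1 in 5 of 20, Gas6 in 5 of 22 and Ccdc194 in 2 of 22. Cdc14b, Slc6a20a, Npy, Bnc1 and Gas6 passed the filter on covered libraries only through the GSK-126 group, where they are high. How often they were called therefore supports nothing. The cause of the other changes was not tested.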

Other observations

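Over the untreated time course, which the response difference did not use, the 13 promoters with a negative difference at equal length had a median coverage of 9.37% at DIV1, 9.70% at DIV3, 18.9% at DIV5 and 10.4% at DIV7. Over all promoters tested at equal length the medians were 1.21%, 1.99%, 1.89% and 2.37%. The 108 promoters of the all-peaks set had 7.88%, 11.8%, 12.6% and 5.40% at the same days, beside 5.58%, 5.91%, 4.71% and 1.67% over all promoters tested. The uncut lists covered a mean of 3.26 Mb at DIV5 and 1.56 Mb at DIV7. The 13 and the 108 were chosen with DIV5 vehicle libraries, which favours promoters covered at DIV5. The 10 promoters with a positive difference had medians of at most 1.18% on every day. The DIV1 cells were harvested before cytosine arabinoside was added, so DIV1 differs from the later days in this too.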
